A study of Mus musculus with 21 samples.

Results

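The genes described here encode the proteins that fill, hold, dock and fuse synaptic vesicles. They are 38 named genes chosen for that function, with earlier results of these data known. They were matched by gene symbol and are 38 of the 18193 genes with a single symbol on the array. Shares of members given beside those of all genes are therefore descriptive and not an independent test. Each gene was read by its probe set with the largest SD over all 21 arrays. They comprise 11 synaptotagmins, 15 vesicle-associated proteins, 6 genes of the fusion machinery and 6 genes of the active zone. RNA came from purified post-mitotic neurons that were grown from mouse embryonic stem cells and hybridised to Affymetrix mouse expression arrays, 3 per group. In the engineered lines a nestin enhancer (NesE), active in neural progenitors, drives 1 transcription factor. NesE-Lmx1a cells, meant as mesencephalic dopaminergic neurons, received sonic hedgehog (SHH) and FGF8 and were taken at day 14 (described as mature) and at day 10 (described as immature). NesE-Nkx2.2 cells, meant as serotonergic neurons, were taken at day 10 with SHH and either FGF8 (rostral hindbrain) or retinoic acid, RA (caudal hindbrain). NesE-Olig2 cells, meant as somatic motor neurons, were given SHH and RA and collected at day 8. The wild type groups were collected at day 10 after FGF8 (dorsal midbrain) and at day 8 after RA (dorsal hindbrain). Titles of the wild type samples name SHH and their source names do not, so line and SHH cannot be told apart where a line is set against wild type cells.

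A nerve terminal releases transmitter when calcium enters near a docked vesicle. Rab3 and RIM proteins bring the vesicle to the active zone, Munc13 proteins (the Unc13 genes) open syntaxin for assembly with SNAP-25 and the vesicle SNARE, complexin clamps the assembled complex, and a synaptotagmin bound to calcium triggers fusion. Synapsins hold a reserve of vesicles, and SV2, synaptophysin and synaptogyrin proteins are carried in the vesicle membrane. Several of these proteins come as isoforms that neuron classes use in different proportions, and synaptotagmins differ in calcium affinity, with some that bind no calcium at all. The comparisons below set isoforms that differ between neuron classes on the same day beside those that differ between day 14 and day 10 of a single line.

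Promoters are shown for 5 members whose arrays are described in detail below or whose promoter held part of the RE1 element, the site of the repressor REST, which acts on many neuronal genes. They cover 250 bases before to 50 after the RefSeq transcription start in mouse build GRCm38.p6, 5′ to 3′ on the gene's strand. Capitals mark the motifs searched on both strands: the left and right arms of RE1 (TTCAGCACC and GGACAGCGC), the cyclic AMP response element (TGACGTCA) and the GC box (GGGCGG). Syn1 lies on the minus strand at chrX:20920869-20921168, Unc13a on the minus strand at chr8:71671708-71672007 and Sv2a on the plus strand at chr3:96180977-96181276. Syt6 lies on the plus strand at chr3:103574995-103575294, the first of its 3 listed starts, and Syt9 on the plus strand at chr7:107370540-107370839.
Syn1: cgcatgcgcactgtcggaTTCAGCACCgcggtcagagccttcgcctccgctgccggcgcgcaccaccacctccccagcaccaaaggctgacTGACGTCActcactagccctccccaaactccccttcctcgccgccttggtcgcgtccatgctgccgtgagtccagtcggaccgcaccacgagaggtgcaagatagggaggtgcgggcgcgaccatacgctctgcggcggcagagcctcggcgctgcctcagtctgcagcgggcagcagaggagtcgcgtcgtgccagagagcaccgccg
Unc13a: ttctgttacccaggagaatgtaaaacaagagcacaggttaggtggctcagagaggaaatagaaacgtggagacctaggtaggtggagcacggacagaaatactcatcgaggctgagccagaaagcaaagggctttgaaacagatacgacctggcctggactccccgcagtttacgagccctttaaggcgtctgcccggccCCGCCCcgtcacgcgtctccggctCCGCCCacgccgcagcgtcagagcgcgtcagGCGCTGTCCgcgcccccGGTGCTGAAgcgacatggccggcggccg
Sv2a: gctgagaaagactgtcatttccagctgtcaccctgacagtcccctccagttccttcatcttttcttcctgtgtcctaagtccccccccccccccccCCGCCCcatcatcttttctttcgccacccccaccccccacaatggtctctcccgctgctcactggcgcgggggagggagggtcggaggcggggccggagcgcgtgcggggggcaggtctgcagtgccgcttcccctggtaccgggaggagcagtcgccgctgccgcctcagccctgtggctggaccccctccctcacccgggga
Syt6: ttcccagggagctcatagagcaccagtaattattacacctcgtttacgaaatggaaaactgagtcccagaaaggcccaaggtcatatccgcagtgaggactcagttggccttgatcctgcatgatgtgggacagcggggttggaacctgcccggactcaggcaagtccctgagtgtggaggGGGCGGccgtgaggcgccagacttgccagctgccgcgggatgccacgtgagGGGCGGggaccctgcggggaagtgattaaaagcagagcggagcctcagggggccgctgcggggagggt
Syt9: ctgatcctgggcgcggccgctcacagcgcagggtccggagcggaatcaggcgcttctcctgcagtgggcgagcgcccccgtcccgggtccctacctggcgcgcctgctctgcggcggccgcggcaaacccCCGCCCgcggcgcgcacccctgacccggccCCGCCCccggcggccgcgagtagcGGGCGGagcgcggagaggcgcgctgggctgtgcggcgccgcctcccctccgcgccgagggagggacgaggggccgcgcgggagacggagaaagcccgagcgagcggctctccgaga
Syn1 is shown for an RE1 left arm and the cyclic AMP element, Unc13a for both RE1 arms side by side just after its start, and Sv2a, Syt6 and Syt9 for the contrasts between lines described below. Of the 38 members 28 had promoters in the table, with 38 starts in all. The RE1 left arm was found in 2 of these (5.26%), against 0.371% of 32851 promoters in the table, and the right arm in 1 (2.63%), against 0.405%. The cyclic AMP element was in 1 (2.63%), against 1.79%, and the GC box in 27 (71.1%), against 35.7%. The E-box CATATG was in 0 of the 38, against 3.91%. Such a match describes letters only.

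The log2 values are deviations from the median of their probe set. They give differences between arrays and not absolute levels, and levels of different genes cannot be compared. A gene was called higher or lower at an adjusted p under 0.05 and a log2 fold change of at least 1 in size, in limma over all genes, and each fold change is given with its standard error. In bulk RNA, fewer cells of a type and less RNA per cell cannot be told apart. The hybridisation control bioC split the arrays into 9 (A, -2.75 to -1.27) and 12 (B, -0.15 to 0.65), and the labelling controls averaged -3.83 to -3.68 on the Lmx1a day 10 arrays against -1.80 to 2.03 elsewhere. In comparisons with that group, a difference in labelling cannot be told apart from the group itself. Summed markers of the classes followed the lines, while not every single gene did. The summed values of 5 motor neuron genes were 25.31 to 26.66 in Olig2 cells and at most 3.80 in the other groups. Those of 4 serotonergic genes were 15.85 to 22.81 in both Nkx2.2 groups and at most 7.61 elsewhere, and those of 5 dopaminergic genes 11.06 to 18.87 in the Lmx1a groups and at most 10.04 elsewhere. Slc18a2, in both of the last lists, had means of 0.54 and 1.67 in Lmx1a cells at day 10 and 14. Its means in Nkx2.2 cells were 4.06 with FGF8 and 4.15 with RA. Dopaminergic Slc6a3 was at 0.05 in Lmx1a cells at day 10. Isl1, a motor neuron gene, was at 0.61 in Olig2 cells and 0.57 in Nkx2.2 cells with FGF8. Wild type cells with RA had Lhx3 at 4.97 and Gata3 at 2.50. The summed values of 7 general neuron markers were lowest in Nkx2.2 cells with RA (-8.13 to -5.38) and ran to 6.93 in wild type cells with RA. Summed over 7 astroglial markers, Nkx2.2 cells with RA were at 7.80 to 8.81 and Olig2 cells at -4.21 to -3.54. Which markers are at 0 cannot be read from centred values.

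Across the 7 groups, wild type cells with RA had the highest group mean for 16 of the 38 members, against 13.9% of all genes. They had the lowest for 1, Syt17, against 39.6% of all genes. Nkx2.2 cells with RA had the lowest mean for 12 members, against 20.7% of all genes. Wild type cells with FGF8 had the highest mean for 0 members, against 11.2% of all genes. The mean over the 38 members was 0.83, 0.42 and 0.56 on the arrays of wild type cells with RA. It was -0.44, -0.05 and -0.55 in wild type cells with FGF8 and -0.30 to 0.48 on the other arrays. The widest spans of group means were those of Sncg at 6.06, Syt6 at 5.53, Unc13c at 5.16, Sv2b at 4.70 and Syt13 at 4.27 log2 units. At the other end Snap91 and Vamp1 spanned 0.77 and 0.81.

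**Figure D1:**
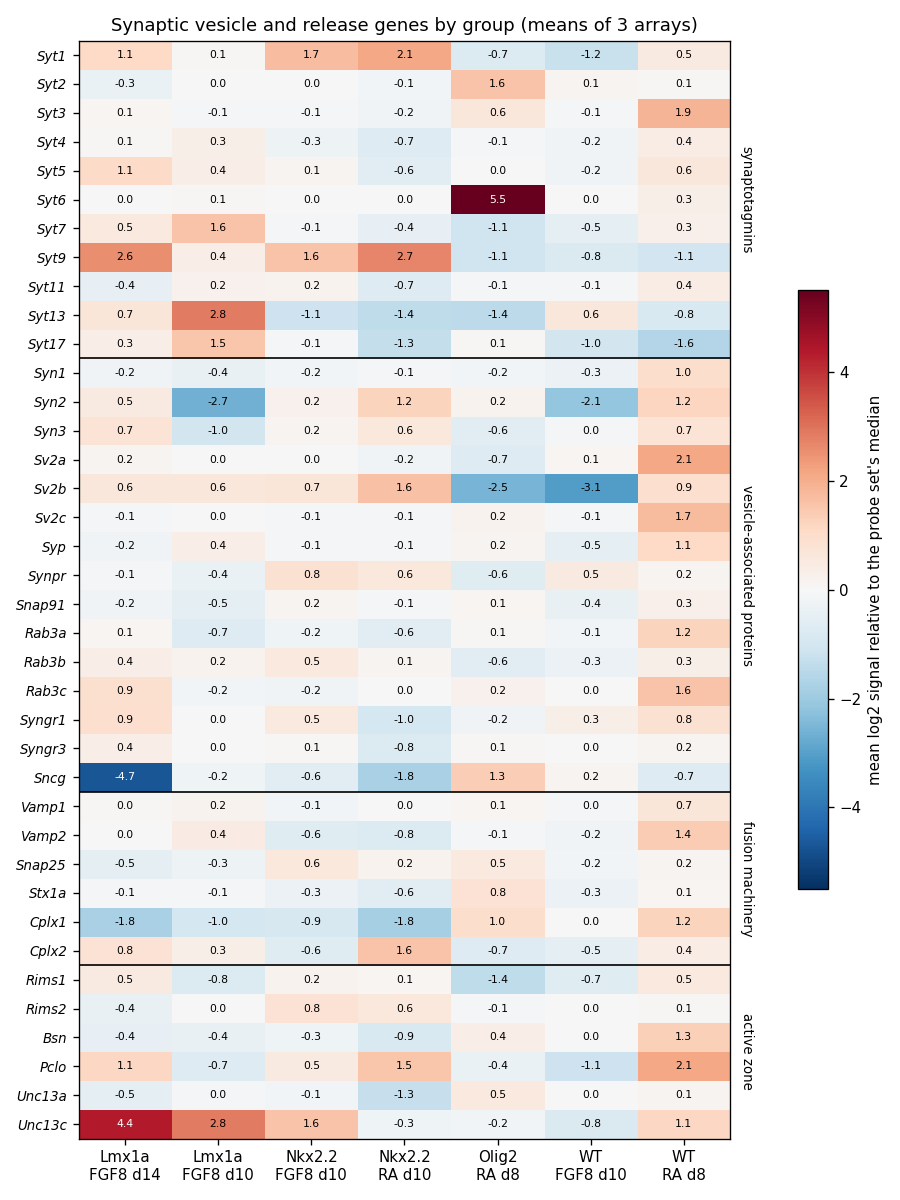
Mean of 3 arrays for each of the 38 genes (down) in each of the 7 groups (across), as log2 signal relative to the probe set's median over all arrays, with red above and blue below 0. Syt6 stands out in Olig2 cells at 5.5, Unc13c in both Lmx1a groups, and Sncg is at -4.7 in Lmx1a cells at day 14.

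Of the 38 members 19 (50%) were called in at least 1 of 4 comparisons of classes, against 16.7% of all genes. Day, and FGF8 or RA, were the same on both sides of each. These comparisons were Lmx1a, Nkx2.2 with FGF8 and Olig2 cells against their wild type, and Lmx1a against Nkx2.2 cells with FGF8. Where wild type cells enter, line and SHH cannot be told apart. Of these 19, 7 (18.4%) were also called between day 14 and day 10 of the Lmx1a line, against 2.23% of all genes: Syt7, Syt9, Syt13, Syn2, Syn3, Rims1 and Sncg. The other 12 (31.6%) were called between classes and not with day, against 14.5% of all genes: Syt2, Syt3, Syt6, Syt17, Syn1, Sv2a, Sv2b, Sv2c, Vamp2, Rab3a, Pclo and Unc13c. No member was called with day alone, against 2.01% of all genes. The remaining 19 (50%) were called in neither way, against 81.3% of all genes. A member that was not called with day is not shown to be stable: the change of Pclo with day, for example, was 1.84 ± 0.59 with an adjusted p of 0.0774 in limma. The comparisons share arrays: those of Lmx1a cells at day 10 enter 3 of these comparisons, and those of wild type cells with FGF8 enter 2.

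**Figure D2:**
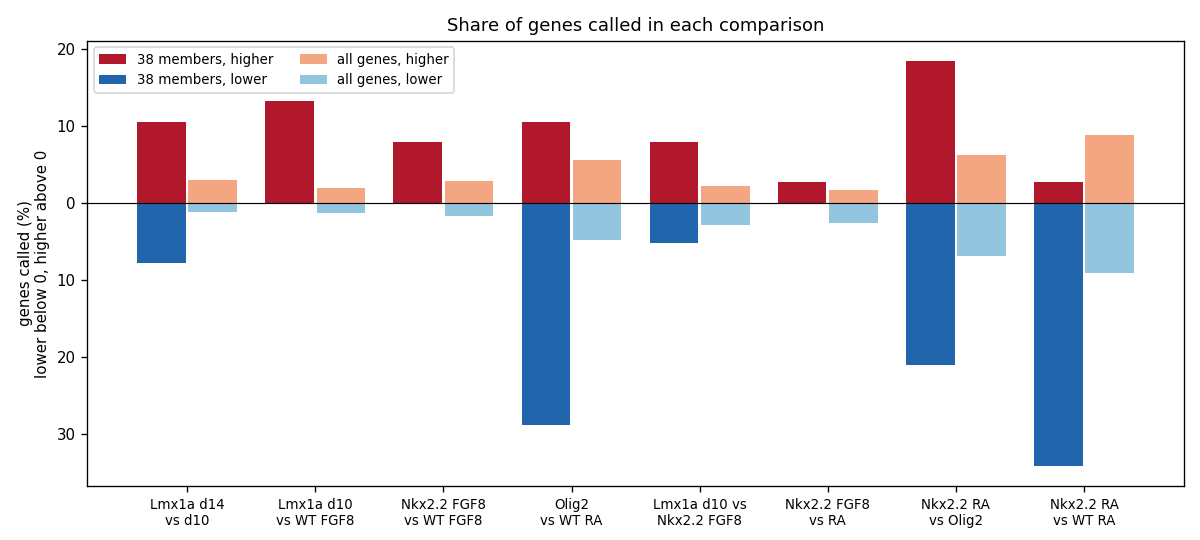
Share of the 38 members (dark bars) and of all 18193 genes (light bars) called higher (above 0) and lower (below 0) in each of 8 comparisons, in percent. The members' tallest bars are the lower calls of Olig2 and of Nkx2.2 cells against wild type cells with RA.

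Lmx1a cells at day 14 were compared with day 10 to see which release genes differ with time in a single line and medium. On the probe sets used, synapsins 2 and 3 rose and γ-synuclein fell: 4 of 38 members were called higher (10.5%, against 2.96% of all genes) and 3 lower (7.89%, against 1.28%). The median change of the members was 0.06, against -0.05 over all genes, and 19 of 38 changes were positive. Sncg encodes γ-synuclein, a small protein of sensory, motor and some brain neurons. Its values were -3.93, -5.33 and -4.92 at day 14, against 0.00, 0.66 and -1.36 at day 10. All day 14 arrays lay far below every day 10 array, and the difference was -4.49 ± 0.51 (22.5-fold lower, adjusted p = 8.28e-05).

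Among the vesicle-associated proteins the synapsins Syn2 and Syn3, which tether vesicles to actin, moved together at day 14. Syn2 was at 0.00, 1.31 and 0.17 at day 14, against -2.63, -2.23 and -3.10 at day 10, with no overlap (3.14 ± 0.53, 8.83-fold higher, adjusted p = 0.00244). Syn3 was at 0.52, 0.93 and 0.79 at day 14, against -1.11, -0.53 and -1.38 at day 10, again without overlap (1.75 ± 0.31, adjusted p = 0.00329). The other 5 probe sets of Syn2 ran from -0.13 to 1.54, 3 of them positive, and the other 2 of Syn3 from 0.21 to 1.06. None of these was called. The third synapsin, Syn1, had overlapping arrays and a difference of 0.19 ± 0.32 (adjusted p = 0.709). Of the 15 vesicle-associated genes 12 were not called. Among them, Rab3c differed by 1.05 ± 0.59 (adjusted p = 0.28), Syngr1 by 0.89 ± 0.37 (adjusted p = 0.17) with arrays apart, and Rab3a by 0.81 ± 0.34 (adjusted p = 0.173). Syp, synaptophysin, differed by -0.56 ± 0.24 (adjusted p = 0.179) and Sv2b by -0.03 ± 0.50 (adjusted p = 0.976).

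Synaptotagmins changed in opposite directions with day. Syt9, a fast calcium sensor in mouse neurons, was at 2.199, 3.01 and 2.51 at day 14, against 0.33, 0.86 and -0.04 at day 10 (2.19 ± 0.40, 4.56-fold higher, adjusted p = 0.00401). Syt13, an atypical form that binds no calcium, was at 0.00, 1.66 and 0.37 at day 14, against 1.74, 3.26 and 3.55 at day 10 (-2.17 ± 0.56, adjusted p = 0.0286). Syt7, the slow high-affinity sensor linked to asynchronous release, was at 0.39, 0.54 and 0.67 at day 14, against 1.42, 1.90 and 1.40 at day 10 (-1.03 ± 0.29, adjusted p = 0.0453). In each of these the groups did not overlap, and for Syt13 replicate 2 of day 14 came closest to day 10. The other 3 probe sets of Syt7 ran from -0.40 to -0.08 and were not called.

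At the active zone Rims1, a scaffold that links Rab3 on the vesicle to calcium channels, was at 0.28, 0.74 and 0.45 at day 14, against -1.22, 0.00 and -1.07 at day 10. It rose by 1.26 ± 0.35 with an adjusted p of 0.0434. Unc13c, a Munc13 priming factor best known from cerebellum, was high at both days, at 4.32, 4.82 and 3.97 at day 14, against 3.29, 3.43 and 1.81 at day 10. Those arrays did not overlap, but its change of 1.53 ± 0.76 had an adjusted p of 0.234. None of the 6 genes of the fusion machinery was called in limma, and 0 of them reached an unadjusted p under 0.05.

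The calls of Sncg, Syn2 and Syt9 held under every alternative run. Leaving out any array ended the calls of Rims1 (1.03 to 1.64), Syt7 (-1.12 to -0.87) and Syt13 (-2.73 to -1.82), except day 10 replicate 2 for Rims1, day 10 replicate 3 for Syt7, and day 10 replicate 1 and day 14 replicate 2 for Syt13. That of Syn3 ended with probe sets without a name suffix (1.06, adjusted p = 0.0819). The astroglial markers Aldh1l1 and Fabp7 were called higher at day 14, 2 of 7 in their list, whose summed values were 2.84 to 7.12 at day 14 against -3.13 to -1.74 at day 10. Of 5 motor neuron markers Prph (-4.36) and Isl1 (-3.25) were called lower at day 14. Serotonergic Gata3 (2.38) and dopaminergic Slc6a3 (4.26) were called higher. The summed values of 6 progenitor and cycling genes were -4.82 to -0.50 at day 14 against 0.78 to 5.59 at day 10. Of these genes 0 were called, and 4 of the 6 differences were negative. The part of all these markers in the changes of the members, Sncg included, was not tested.

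**Figure D3:**
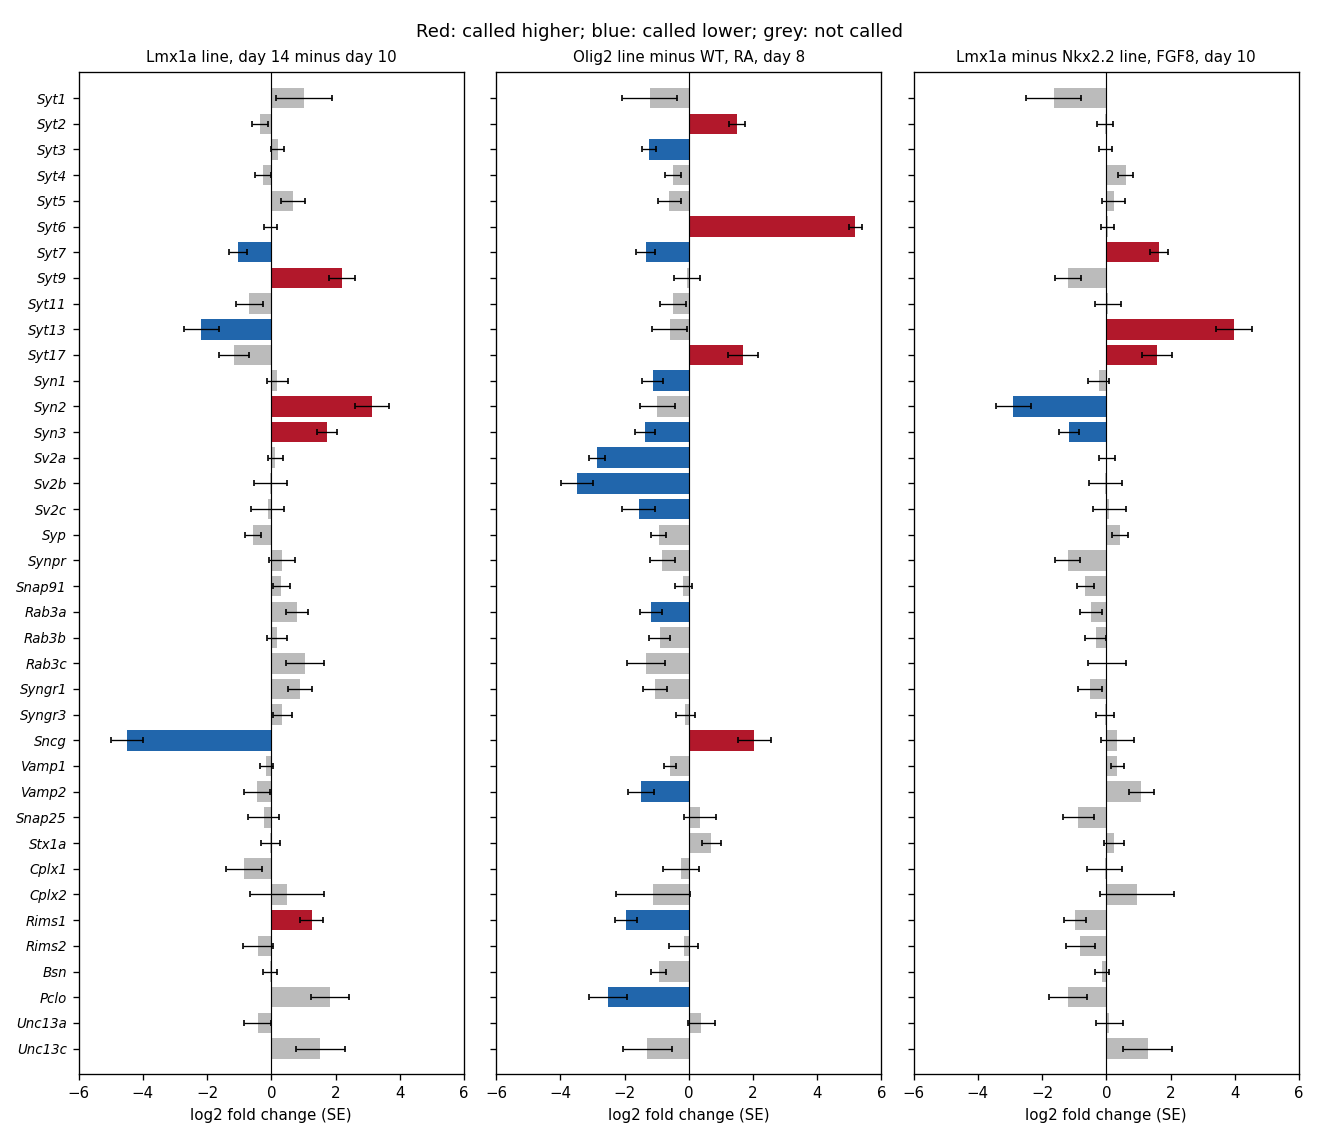
Log2 fold change with its standard error for all 38 members in 3 comparisons: Lmx1a cells at day 14 minus day 10, Olig2 minus wild type cells with RA at day 8, and Lmx1a minus Nkx2.2 cells with FGF8 at day 10. Red bars were called higher, blue lower, and grey were not called.

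Lmx1a cells at day 10 were set against wild type cells of the same day with FGF8 to find release genes that differ with the dopaminergic line. Line and SHH cannot be told apart here. Of the members 5 were called higher (13.2%, against 1.96% of all genes) and 0 lower (1.36% of all genes), although 2 had lower values at an unadjusted p under 0.05 in limma. The median of the members was 0.05, against 0.03 over all genes. Sv2b, an SV2 glycoprotein of the vesicle membrane, was at 0.00, 0.58 and 1.33 in Lmx1a cells, against -3.18, -3.22 and -2.82 in wild type cells (3.71 ± 0.50, 13.1-fold higher, adjusted p = 0.000642). Unc13c was at 3.29, 3.43 and 1.81 in Lmx1a cells, against -0.80, -0.73 and -0.84 in wild type cells (3.63 ± 0.76, 12.4-fold higher, adjusted p = 0.0112). All Lmx1a arrays were above all wild type arrays for both genes. The other 2 probe sets of Unc13c differed by 0.04 and 1.16 and were not called.

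The other 3 were synaptotagmins outside the group of fast sensors. Syt17, a form that does not bind calcium, was at 0.52, 2.60 and 1.41 in Lmx1a cells, against -1.66, -0.57 and -0.80 in wild type cells (2.52 ± 0.46, adjusted p = 0.00488). Syt13 was at 1.74, 3.26 and 3.55 in Lmx1a cells, against 0.36, 0.22 and 1.27 in wild type cells (2.23 ± 0.56, adjusted p = 0.0325). Syt7 was at 1.42, 1.90 and 1.40 in Lmx1a cells, against -0.65, -0.09 and -0.79 in wild type cells (2.08 ± 0.29, adjusted p = 0.000776). Groups were apart on every array for all of them. The fast sensors Syt1 and Syt9 also had separate arrays, with differences of 1.29 ± 0.86 (adjusted p = 0.52) and 1.17 ± 0.40 (adjusted p = 0.128) that were not called. Syt13 lost its call without any of 4 arrays (Lmx1a replicates 2 and 3, wild type replicates 1 and 2, range of values 1.88 to 2.79). Unc13c lost it without the 3 arrays that stood apart (3.44, adjusted p = 0.0738). Of 7 astroglial markers Slc1a3 (3.21) was called higher in Lmx1a cells, and its part was not tested.

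Against Nkx2.2 cells with FGF8, also at day 10, Lmx1a cells had the same 3 synaptotagmins higher (7.89% of the members, against 2.2% of all genes) and 2 synapsins lower (5.26%, against 2.87%). This comparison uses the same Lmx1a arrays as the last. All Lmx1a arrays were in bioC batch A and all Nkx2.2 arrays in batch B, so class and batch cannot be told apart within it. With the batch as a block, estimated from the other groups, the calls of Syt17 (1.49, adjusted p = 0.219) and Syn3 (-1.15, adjusted p = 0.158) ended and those of Syt7, Syt13 and Syn2 held. Syt13 in Nkx2.2 cells was at -1.41, -1.76 and -0.23, all below the 1.74, 3.26 and 3.55 of Lmx1a cells, and differed by 3.98 ± 0.56 (15.8-fold higher in Lmx1a, adjusted p = 0.000695). Syt7 differed by 1.64 ± 0.29 (adjusted p = 0.00354) and Syt17 by 1.59 ± 0.46 (adjusted p = 0.0441), and neither overlapped. Syn2 was at -2.63, -2.23 and -3.10 in Lmx1a cells, against 0.80, 0.03 and -0.11 in Nkx2.2 cells (-2.89 ± 0.53, 7.42-fold lower, adjusted p = 0.0044). Syn3 differed by -1.17 ± 0.31 (adjusted p = 0.0306). Leaving out an array ended the call of Syt17 for any array but Lmx1a replicate 1 (1.04 to 2.08) and that of Syn3 for any but Lmx1a replicate 2 and Nkx2.2 replicate 3 (-1.41 to -0.98). Astroglial Aqp4 (-4.52) and Aldh1l1 (-2.32), mesenchymal Dcn (-4.64) and the progenitor gene Sox1 (-1.96) were called lower in Lmx1a cells, with astroglial sums of -3.13 to -1.74 in Lmx1a cells, against 0.26 to 7.34 in Nkx2.2 cells. Their part in the calls was not tested.

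Nkx2.2 cells with FGF8 had 3 members higher than wild type cells with FGF8 (7.89%, against 2.83% of all genes) and 0 lower (1.71% of all genes), with 1 lower at an unadjusted p under 0.05 in limma. The median of the members was 0.19, against -0.01 over all genes. Sv2b was again the largest, at 1.61, -0.21 and 0.60 in Nkx2.2 cells, against -3.18, -3.22 and -2.82 in wild type cells (3.74 ± 0.50, 13.4-fold higher, adjusted p = 0.000319). Syt9 was at 2.11, 0.33 and 2.28 in Nkx2.2 cells, against -0.87, -0.86 and -0.62 in wild type cells (2.36 ± 0.40, 5.12-fold higher, adjusted p = 0.00209). Syn2 was at 0.80, 0.03 and -0.11 in Nkx2.2 cells, against -2.37, -0.59 and -3.39 in wild type cells (2.36 ± 0.53, adjusted p = 0.0143). The groups did not overlap for any of the 3, although wild type replicate 2 came closest for Syn2. The call of Syn2 ended without Nkx2.2 replicate 1, wild type replicate 1 or wild type replicate 3, with values between 1.72 and 3.12 over all leave-outs. Those of Sv2b and Syt9 held in every leave-out. With only the arrays compared, Syt9 (adjusted p = 0.0987) and Syn2 (adjusted p = 0.189) lost their calls in limma. All Nkx2.2 arrays were in bioC batch B, and wild type replicates 1 and 2 in batch A. Within batch B, with wild type replicate 3 alone, Sv2b differed by 3.49 and Syt9 by 2.19. Markers of other cells moved with this comparison. Of 7 astroglial genes Aqp4 (4.53) and Aldh1l1 (2.72) were called higher and Slc1a2 (-1.52) lower, with sums of 0.26 to 7.34 in Nkx2.2 cells, against -7.30 to -2.79 in wild type cells. Of 4 mesenchymal genes Dcn (4.22) was called higher, with sums of -0.33 to 7.56 in Nkx2.2 cells, against -4.88 to -0.23 in wild type cells. Their part in the calls was not tested. Syt13 had the opposite sign to that in Lmx1a cells, at -1.75 ± 0.56, and was not called (adjusted p = 0.0755).

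Because the Lmx1a and the Nkx2.2 comparison share the wild type arrays, their values are given side by side and not as separate evidence. Sv2b was higher in both, by 3.71 and 3.74. Syt7 was called only in Lmx1a cells, and the direct comparison with Nkx2.2 cells above, in which class and batch coincide, tests the difference for Syt7, Syt13, Syt17 and Syn2. Syt9 was not called in that direct comparison (-1.19 ± 0.40, adjusted p = 0.0829), so the classes are not shown to differ in Syt9 at day 10.

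Olig2 cells differed most from their wild type: 4 members were higher (10.5%, against 5.5% of all genes) and 11 lower (28.9%, against 4.85%). Both groups were at day 8 with RA. Over the 38 members the median was -0.92, against 0.04 over all genes, and 31 of 38 differences were negative. Syt6, a synaptotagmin of the high-affinity group with Syt3, was at 5.73, 5.66 and 5.11 in Olig2 cells, against -0.01, -0.03 and 0.99 in wild type cells. On all other arrays it ran from -0.06 to 0.99. The difference was 5.18 ± 0.21 (36.3-fold higher, adjusted p = 2.22e-10). Its other 3 probe sets differed by 0.06 to 0.07 in this comparison and were not called, so this result rests on a single probe set.

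Other synaptotagmins split. Syt2, the fast sensor of hindbrain, spinal and neuromuscular synapses, was at 2.13, 1.501 and 1.06 in Olig2 cells, against 0.51, -0.23 and -0.07 in wild type cells (1.49 ± 0.25, adjusted p = 0.000771). Its other 2 probe sets differed by 0.18 and 0.20 and were not called, and the mean of all gave 0.62. Syt17 was at 0.00, 0.17 and 0.02 in Olig2 cells, against -1.81, -1.81 and -1.26 in wild type cells (1.69 ± 0.46, adjusted p = 0.0191). Both were higher on every Olig2 array. Syt7, by contrast, was at -0.95, -1.10 and -1.17 in Olig2 cells, against 0.61, 0.20 and 0.00 in wild type cells (-1.34 ± 0.29, adjusted p = 0.00501), and Syt3 differed by -1.24 ± 0.21 (adjusted p = 0.00101). Syt1 arrays overlapped, at -1.01, -2.17 and 0.95 in Olig2 cells and 1.59, 0.59 and -0.76 in wild type cells.

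The vesicle membrane glycoproteins SV2 were lower in Olig2 cells in all 3 isoforms. Sv2a, the binding site of levetiracetam, was at -0.99, -0.87 and -0.32 in Olig2 cells, against 2.26, 2.09 and 2.02 in wild type cells (-2.85 ± 0.24, 7.21-fold lower, adjusted p = 1.81e-06). Sv2b was at -2.28, -3.08 and -2.27 in Olig2 cells, against 1.81, 0.63 and 0.34 in wild type cells (-3.47 ± 0.50, 11.1-fold lower, adjusted p = 0.00027). Olig2 arrays lay below all wild type arrays for both. Sv2c was at 0.34, 0.23 and -0.02 in Olig2 cells, against 1.44, 0.22 and 3.58 in wild type cells, with overlap. Its difference of -1.56 ± 0.51 (adjusted p = 0.0486) rests on wild type replicate 3, without which it was -0.64 (adjusted p = 0.0681). Sncg moved the other way, at 1.48, 1.27 and 1.25 in Olig2 cells, against -0.07, -0.43 and -1.62 in wild type cells (2.04 ± 0.51, 4.12-fold higher, adjusted p = 0.0116).

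Among release-site proteins Pclo, the giant active zone scaffold piccolo, was at -0.92, -1.01 and 0.80 in Olig2 cells, against 2.38, 2.04 and 2.02 in wild type cells (-2.52 ± 0.59, adjusted p = 0.00817). Rims1 was at -1.55, -1.55 and -1.14 in Olig2 cells, against 0.78, 0.40 and 0.42 in wild type cells (-1.95 ± 0.35, adjusted p = 0.00145). Neither overlapped. Of the fusion machinery Vamp2, the main vesicle SNARE, was called lower (-1.49 ± 0.39, adjusted p = 0.016). Syn3 (-1.38 ± 0.31), Rab3a, a vesicle GTPase (-1.18 ± 0.34), and Syn1 (-1.12 ± 0.32) completed the lower calls. Bsn, the related scaffold bassoon, and Syp were lower by less than 1 log2 unit, at -0.93 ± 0.23 (adjusted p = 0.0104) and -0.94 ± 0.24 (adjusted p = 0.0142).

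Leaving out 1 array ended the calls of Sv2c and Rab3a (5 of 6 arrays, all but wild type replicate 2 and all but wild type replicate 3), Syn1 and Syt17 (4 of 6), Vamp2 (Olig2 replicate 2 or wild type replicate 3) and Sncg (wild type replicate 3). Within bioC batch B, where only Olig2 replicate 3 remains with all wild type arrays, only Syt6 and Sv2a stayed called. Neuron markers Elavl3 and Rbfox3, 2 of 7, were called lower in Olig2 cells, and the sums of that list were -1.05 to 1.69 in Olig2 cells against 1.37 to 6.93 in wild type cells. Astroglial Slc1a2 (-2.37) and Aldh1l1 (-2.83) and mesenchymal Dcn (-3.96) were called lower too, and the progenitor gene Sox1 (1.54) higher. Mesenchymal sums were -2.81 to 1.64 in Olig2 cells and -0.69 to 15.06 in wild type cells. The part of all these markers in the calls was not tested.

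**Figure D4:**
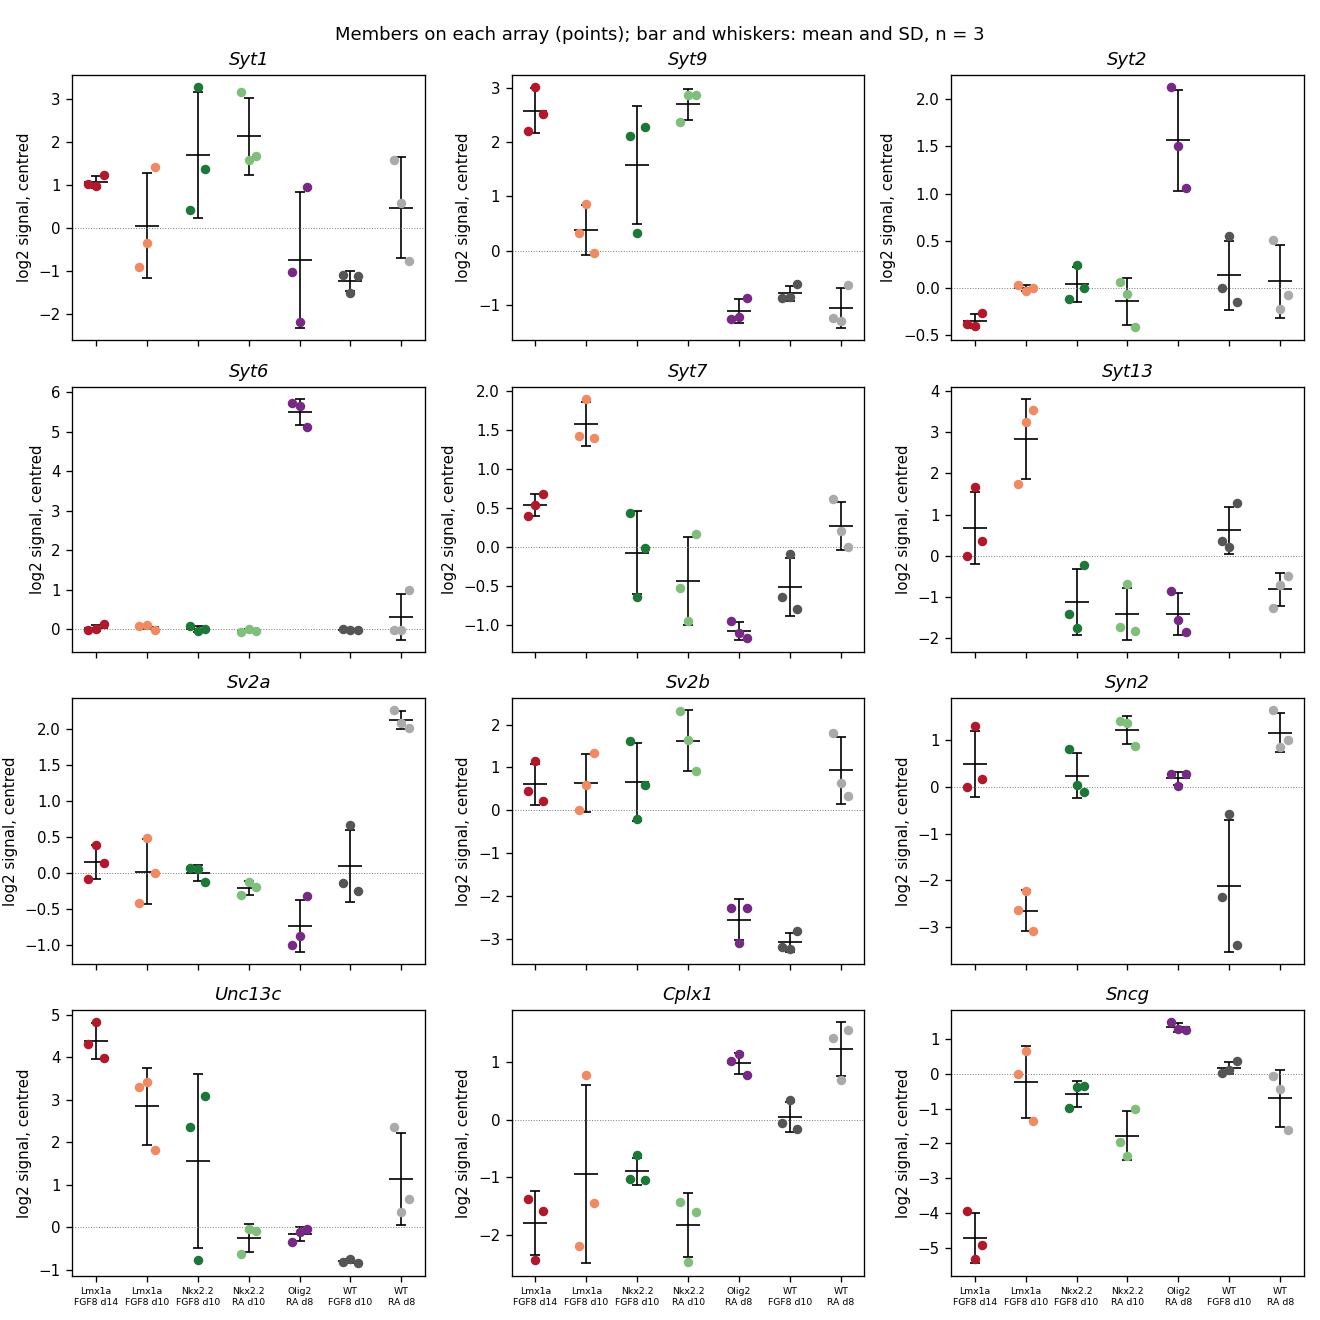
Centred log2 signal of 12 members on each array (points) in the 7 groups, with the group mean and SD as bar and whiskers (n = 3 each). Syt6 and Syt2 are high in Olig2 cells, Syt7 and Syt13 in Lmx1a cells at day 10, and Sv2a in wild type cells with RA.

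Nkx2.2 cells at day 10 with RA were set against wild type cells at day 8 with RA, so day, line and SHH cannot be told apart. These are the same wild type arrays as in the Olig2 comparison. Of the members 1 was higher (2.63%, against 8.84% of all genes) and 13 lower (34.2%, against 9.16%), and the median was -0.69, against 0.01. The higher gene was Syt9, at 2.36, 2.85 and 2.86 in Nkx2.2 cells, against -1.24, -1.29 and -0.63 in wild type cells (3.74 ± 0.40, 13.4-fold higher, adjusted p = 9.95e-06). No array came near the other group.

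Genes of every role were lower in Nkx2.2 cells with RA. Cplx1, complexin 1, which binds the assembled SNARE complex, was at -1.43, -2.47 and -1.61 in Nkx2.2 cells, against 1.42, 0.68 and 1.55 in wild type cells (-3.06 ± 0.55, 8.32-fold lower, adjusted p = 0.000628). Sv2a was at -0.30, -0.12 and -0.19 in Nkx2.2 cells, against 2.26, 2.09 and 2.02 in wild type cells (-2.33 ± 0.24, 5.02-fold lower, adjusted p = 8.25e-06). Bsn was at -0.88, -0.71 and -0.96 in Nkx2.2 cells, against 1.54, 1.21 and 1.21 in wild type cells (-2.17 ± 0.23, 4.5-fold lower, adjusted p = 8.03e-06). The groups were separate for all of these. Vamp2 (-2.14 ± 0.39), Syt3 (-2.06 ± 0.21), Rab3a (-1.86 ± 0.34), Sv2c (-1.82 ± 0.51), Syngr1 (-1.80 ± 0.37), Unc13a, the main Munc13 of forebrain synapses (-1.42 ± 0.42), Syt5 (-1.21 ± 0.36), Syp (-1.20 ± 0.24), Syt4, a form found on dense-core vesicles (-1.11 ± 0.24), and Syn1 (-1.06 ± 0.32) followed. Sv2b, in contrast, differed by 0.70 ± 0.50 (adjusted p = 0.405) and was not called.

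Leaving out an array ended the calls of Syt5 (4 of 6 arrays: both groups' replicate 1, Nkx2.2 replicate 2 and wild type replicate 3), Syn1 (Nkx2.2 replicate 3, wild type replicates 1 and 3), Unc13a (Nkx2.2 replicates 2 and 3, wild type replicate 1), Syt4 (wild type replicate 1) and Sv2c (wild type replicate 3). Without the last array Sv2c differed by -0.91 (adjusted p = 0.00771). Of 7 neuron markers, Tubb3, Elavl3 and Rbfox3 were called lower in Nkx2.2 cells with RA, with sums of -8.13 to -5.38 against 1.37 to 6.93 in wild type cells. Astroglial Aqp4 and Aldh1l1 were called higher and Slc1a2 lower, and the sums of that list were 7.80 to 8.81 against -0.85 to 7.01. The oligodendrocyte gene Mbp (3.47) and the progenitor genes Sox1 (2.68) and Sox2 (1.78) were also called higher. The part of these markers in the lower calls was not tested.

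Set against Olig2 cells, Nkx2.2 cells with RA showed which isoforms differ between serotonergic and motor neuron classes, although day 10 against day 8 goes with the line. Of the members 7 were higher (18.4%, against 6.19% of all genes) and 8 lower (21.1%, against 6.94%). Sv2b was at 2.32, 1.65 and 0.92 in Nkx2.2 cells, against -2.28, -3.08 and -2.27 in Olig2 cells (4.17 ± 0.50, 18-fold higher, adjusted p = 2.79e-05). Syt9 was at 2.36, 2.85 and 2.86 in Nkx2.2 cells, against -1.26, -1.22 and -0.86 in Olig2 cells (3.80 ± 0.40, 14-fold higher, adjusted p = 8.38e-06). Syt1, the fast sensor of forebrain synapses, was at 3.18, 1.58 and 1.67 in Nkx2.2 cells, against -1.01, -2.17 and 0.95 in Olig2 cells (2.89 ± 0.86, adjusted p = 0.0256). Pclo (1.92 ± 0.59), Rims1 (1.54 ± 0.35), Synpr, the synaptophysin relative synaptoporin (1.25 ± 0.39), and Syn3 (1.23 ± 0.31) were the other higher calls.

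Lower in Nkx2.2 cells with RA than in Olig2 cells were Syt6 (-5.53 ± 0.21, 46.3-fold) and Syt2 (-1.70 ± 0.25), each on the single probe set described above (the other probe sets of Syt2 differed by -0.19 and -0.18). Cplx1 was at -1.43, -2.47 and -1.61 in Nkx2.2 cells, against 1.02, 1.14 and 0.77 in Olig2 cells (-2.81 ± 0.55, 7.02-fold lower, adjusted p = 0.00163). Sncg was at -1.95, -2.36 and -1.004 in Nkx2.2 cells, against 1.48, 1.27 and 1.25 in Olig2 cells (-3.11 ± 0.51, 8.61-fold lower, adjusted p = 0.000399). Both sets of arrays were well apart. Unc13a (-1.81 ± 0.42), Syt17 (-1.39 ± 0.46), Stx1a, the plasma membrane SNARE syntaxin 1A (-1.37 ± 0.30), and Bsn (-1.24 ± 0.23) made up the remainder. Arrays overlapped for Pclo only. In the same comparison Aqp4 (4.64), Aldh1l1 (4.85), Mbp (2.32), Dcn (3.36) and mesenchymal Lum (3.53) were called higher and Elavl3 (-1.70) and Rbfox3 (-1.56) lower, and their part was not tested. Leaving out an array ended the calls of Synpr and Syt17 (any but Nkx2.2 replicate 3), Pclo (any but replicate 3 of either group), Syt1 (Nkx2.2 replicate 1, Olig2 replicates 1 and 2) and Syn3 (Nkx2.2 replicate 1, Olig2 replicate 2). All Nkx2.2 arrays were in bioC batch B, and Olig2 replicates 1 and 2 in batch A. Within batch B, with Olig2 replicate 3 alone, Syt1 differed by 1.19, Pclo by 0.75, Syn3 by 0.72 and Synpr by 1.14. Rims1 was there at 1.27, Syt2 at -1.19, Syt17 at -1.35 and Sncg at -3.02. The part of the batch was not tested.

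The Nkx2.2 line was compared between media, FGF8 against RA, both at day 10. There 1 of 38 members was called higher (2.63%, against 1.65% of all genes) and 0 lower (2.66% of all genes), with 7 higher and 1 lower at an unadjusted p under 0.05 in limma. Of the 38 differences 27 were positive. The called gene was Syngr1, synaptogyrin 1, at 0.57, 0.02 and 1.01 with FGF8, against -1.002, -0.71 and -1.16 with RA (1.49 ± 0.37, 2.8-fold higher, adjusted p = 0.0251), without overlap. Its call ended without any of 4 of the 6 arrays, replicates 1 and 3 of either medium. It rests on a single probe set: the other 2 differed by 0.03 and 0.09, and the mean of all gave 0.54, short of the call. Neuron markers Tubb3 (1.30) and Elavl3 (1.32), 2 of 7, were called higher with FGF8, and Aldh1l1 (-2.27) and the oligodendrocyte gene Mbp (-3.93) lower, and their part was not tested. Of the members that were not called, the 95% interval of Syt9 ran from -1.97 to -0.26, that of Cplx1 from -0.23 to 2.10, and that of Unc13c from 0.19 to 3.42.

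The difference between Nkx2.2 and wild type cells was itself compared between media, as FGF8 minus RA. For 34 of 38 members the value was positive, with a median of 1.24 against -0.02 over all genes. There were 7 higher calls (18.4%, against 2.6% of all genes) and 0 lower (1.78% of all genes), with 1 lower at an unadjusted p under 0.05 in limma. They were Sv2b (3.04 ± 0.71; 1.41 with an adjusted p of 0.219 for the mean of its probe sets), Sv2a (2.24 ± 0.35), Syt3 (2.08 ± 0.30), Syngr1 (2.02 ± 0.53), Bsn (1.88 ± 0.32), Rab3a (1.76 ± 0.49) and Syp (1.64 ± 0.34). The wild type cells with RA were taken at day 8 and those with FGF8 at day 10, so medium and day cannot be told apart here. For Sv2a, Syt3, Bsn, Rab3a and Syp the arrays of wild type cells with RA were higher than all the other arrays of this contrast. Of 7 neuron markers, Elavl3 (2.57) and Rbfox3 (2.82) were called higher in this contrast too, and Dcn (4.82), a mesenchymal gene. Their part in the result was not tested. Rab3a and Syngr1 lost their calls without 9 of 12 arrays and Sv2b without 3 (replicate 1 of Nkx2.2 and of wild type cells with FGF8, and of wild type cells with RA). With the mean of probe sets only Sv2a and Syt3 of these 7 genes, each with a single probe set, stayed called.

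Among members that share a name stem, opposite calls were found only for the synaptotagmins. The related scaffolds Pclo and Bsn also differed in direction between Nkx2.2 cells with RA and Olig2 cells. The synaptotagmins split with day (Syt9 higher, Syt7 and Syt13 lower), in Olig2 against wild type cells (Syt2, Syt6 and Syt17 higher, Syt3 and Syt7 lower), in Nkx2.2 cells with RA against Olig2 cells (Syt1 and Syt9 higher, Syt2, Syt6 and Syt17 lower) and against wild type cells (Syt9 higher, Syt3, Syt4 and Syt5 lower). Of the 3 fast sensors, Syt2 had its highest group mean in Olig2 cells, and Syt1 and Syt9 in Nkx2.2 cells with RA. Syt1 in Olig2 cells was at 0.95 on the array of bioC batch B and at -1.01 and -2.17 on those of batch A. For Syt9 the order of group means was Nkx2.2 with RA at 2.69 ± 0.28, Lmx1a day 14 at 2.57 ± 0.41, Nkx2.2 with FGF8 at 1.57 ± 1.08, Lmx1a day 10 at 0.38 ± 0.45, wild type with FGF8 at -0.78 ± 0.14, wild type with RA at -1.05 ± 0.37 and Olig2 at -1.11 ± 0.22 (SD, n = 3 each). Neighbours in this order overlapped among the 4 highest groups and among the 3 lowest, and the 2 sets were apart. In the SV2 family the isoforms followed different groups: Sv2a was high in wild type cells with RA alone, while Sv2b was low in Olig2 cells and in wild type cells with FGF8 and at or above -0.21 on every array of the other groups.

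Of the 38 members 9 (23.7%, against 70.4% of all genes) were called in none of the 8 pairwise comparisons: Syt11, Rab3b, Rab3c, Syngr3, Snap91, Vamp1, Snap25, Cplx2 and Rims2. Snap25, the plasma membrane SNARE partner of syntaxin, had group means between -0.54 and 0.57 and SDs up to 0.97. Cplx2, complexin 2, was not precise enough for a statement: its values in Nkx2.2 cells with RA were -0.85, 1.69 and 3.89. Rab3c was at 2.35 and 2.33 on wild type arrays 1 and 2 with RA and at -0.01 on the third, and at 1.41, 1.84 and -0.56 in Lmx1a cells at day 14. Syngr3 was lower by 0.93 ± 0.29 (adjusted p = 0.0263) in Nkx2.2 cells with RA than in wild type cells with RA, short of 1 log2 unit. For Vamp1, a vesicle SNARE, Snap91, the clathrin adaptor AP180, and Rims2, a second RIM scaffold, the largest span of group means was 1.22, and Syt11 and Rab3b spanned 1.09 and 1.12.

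Release genes outside the 38 were taken from lists of related synaptotagmins and effectors (8 of 9 measured), fusion proteins (16 of 19), active zone proteins (14 of 14) and vesicle and recycling proteins (19 of 22). With day, 1 of 8, 0 of 16, 2 of 14 and 1 of 19 were called in these lists, all of them higher (12.5%, 0%, 14.3% and 5.26%, against 2.96% of all genes). In limma 2 fusion genes were higher and 1 vesicle gene lower at an unadjusted p under 0.05. Those called were Rab27b, a GTPase of secretory granules, at 2.92 ± 0.52, Cadps2, a priming factor for dense-core vesicles, at 2.41 ± 0.59, Syt16 at 2.21 ± 0.44 and Ppfia2, liprin-α2, at 1.43 ± 0.31. In Nkx2.2 cells with FGF8 against wild type cells, Rab27b (2.42 ± 0.52), Rimbp2, which binds RIM and calcium channels (2.33 ± 0.37), Syt16 (2.26 ± 0.44) and Ppfia2 (1.52 ± 0.31) were called, all higher. On the same Nkx2.2 arrays, these 4 genes were lower in Lmx1a cells at day 10 than in Nkx2.2 cells with FGF8, from -2.24 for Syt16 to -1.81 for Rimbp2.

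In Nkx2.2 cells with RA, several SNAREs found in many cell types were higher than in wild type cells with RA. Snap23 (2.67 ± 0.59), Stx3 (2.39 ± 0.56), Vamp8 (1.94 ± 0.54) and Vamp3 (1.88 ± 0.36) were among 5 of 16 fusion genes called higher (31.2%, against 8.84% of all genes), with 0 lower and 1 lower at an unadjusted p under 0.05 in limma. The active zone list had 1 of 14 higher (7.14%), Cadps2 (2.79 ± 0.59), and 4 lower (28.6%, against 9.16% of all genes), among them Ppfia3 (-1.42 ± 0.23) and Cask (-1.19 ± 0.15). Of the 19 vesicle and recycling genes 4 were higher (21.1%) and 5 lower (26.3%), led by Dnm3 (-3.80 ± 0.77) and Sncb, β-synuclein (-2.75 ± 0.54). In Olig2 against wild type cells Stx2 (1.93 ± 0.18) and Doc2b, a calcium-binding release factor (2.58 ± 0.73), were higher, and Rph3a, rabphilin, an effector of Rab3, was lower (-2.57 ± 0.54). Glial and neuronal markers called in the same comparisons are given above, and their part in these differences was not tested.

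The array holds 93 probe sets for the 38 members, and 28 members have several. Of the 72 calls above, the interaction included, 51 had another probe set for the gene, and in 18 another one was called the same way. None was called the opposite way. Syt7, for example, had 3 others, of which 2 were called higher in Lmx1a against wild type cells, at 1.83 and 1.23 beside 2.08. For Syt1 the probe sets disagreed in sign between Olig2 and wild type cells, at 1.18, 0.95 and -0.59 beside -1.22, with none called. All 3 of its other probe sets were called higher in Nkx2.2 cells with RA than in wild type cells with RA, at 1.16 to 2.58, where the one used differed by 1.67 ± 0.86 (adjusted p = 0.189). Sv2b's other probe set differed by -0.76 in Olig2 cells and by 1.29 in Lmx1a cells, in the same directions and not called. In the interaction it differed by -0.22 beside 3.04, with the sign turned. In Olig2 cells the other probe sets of Syt7 ran from -0.12 to 0.21 beside -1.34, and that of Rab3a was at -0.18 beside -1.18. In Nkx2.2 against wild type cells with RA, those of Syngr1 ran from -0.07 to 0.02 beside -1.80, that of Rab3a was at -0.11 beside -1.86 and that of Syp at 0.01 beside -1.20.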

How the data were processed

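The values deposited by the authors are on a log2 scale. The submitters' processing notes name GCRMA, with no version given in the sources used here. RNA, 2 ug of total RNA per array, was extracted from the purified neurons and labelled by in vitro transcription, per the labels' protocols. The deposited values are centred: no probe set has more than 13 values above 0 or more than 13 below, and 79.2% hold an exact 0. This is what a median over 27 arrays leaves, of which 21 are analysed here. Centring removes levels and leaves differences between arrays as they were. Of 45101 probe sets 64 are controls, 34945 carry 1 gene symbol, 932 several and 9160 are unnamed here. Where several probe sets named 1 of the 18193 genes, the one whose values had the largest SD was used. That choice does not use the group labels. The SD over all arrays includes differences between groups, so it favours probe sets that differ between groups, and the same values were then tested. The 38 members had 93 probe sets to choose from, all 18193 genes 34945, so the choice may weigh more on the members. No gene was filtered.

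All genes were fitted in limma 3.58.1 (R 4.3.3) with 1 mean per group over the 21 arrays (14 residual and 1.11 prior degrees of freedom). Benjamini-Hochberg adjustment ran over all genes, separately for 8 comparisons between pairs of groups and 1 interaction. The test was tried on simulated data. Arrays are labelled as biological replicates. Each p-value sets a difference between groups against the spread between arrays within groups, estimated over all 7 groups, and 3 arrays per group limit the precision. The labels name a single cell line for each group, so spread between independently derived lines is not measured. Replicate numbers did not pair the samples (mean correlation of residuals 0.00603 over 63 pairs with the same number, lowest -0.35, and -0.00337 over 126 other pairs).

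The members, gene lists and comparisons were chosen with earlier results of these data known. In each comparison the called members were named, the 12 with the largest changes where more were called, together with members of a family called in opposite directions and up to 4 called genes of each other pathway list. Other members were named after their values were seen, so that all 38 are accounted for. Alternatives were trend and robust moderation (statmod 1.5.0), other choices of probe set, arrays centred on their median, the replicate number or the bioC batch as a block, fits within a batch, only the arrays compared, and leaving out single arrays or 3 arrays that stood apart (replicate 1 of Lmx1a cells at day 10, replicate 1 of Nkx2.2 cells with FGF8, replicate 2 of wild type cells with FGF8). The batch is inferred from control probe sets, since the labels name none. Promoter sequences are from RefSeq (GRCm38.p6), matched by symbol.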

Additional observations from a re-analysis of the deposited data

Results flagged for a closer look

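The difference between Nkx2.2 and wild type cells was more positive, or less negative, with FGF8 than with RA for 7 genes, by limma's test of the difference itself. For Sv2b it was 3.74 with FGF8 and 0.70 with RA, a contrast of 3.04 ± 0.71 (adjusted p = 0.0235). The other probe set of Sv2b gave -0.22 and the mean of both 1.41 (adjusted p = 0.219), and its call did not hold once bioC batch entered the fit (2.99, adjusted p = 0.0536) or when only the arrays compared were fitted (adjusted p = 0.0581). For Sv2a it was -0.09 with FGF8 and -2.33 with RA, a contrast of 2.24 ± 0.35 (adjusted p = 0.00214). For Syt3 it was 0.02 with FGF8 and -2.06 with RA, a contrast of 2.08 ± 0.30 (adjusted p = 0.00128). Syngr1 differed by 0.22 with FGF8 and -1.80 with RA (contrast 2.02 ± 0.53, adjusted p = 0.0382), and Bsn by -0.30 with FGF8 and -2.17 with RA (contrast 1.88 ± 0.32, adjusted p = 0.00423). Rab3a differed by -0.10 with FGF8 and -1.86 with RA (contrast 1.76 ± 0.49, adjusted p = 0.0478), and Syp, by 0.45 with FGF8 and -1.20 with RA (contrast 1.64 ± 0.34, adjusted p = 0.0132). Other probe sets gave -0.03 to 0.07 for Syngr1, 0.14 to 0.90 for Bsn, 0.39 for Rab3a and -0.02 for Syp. With the mean of probe sets Syngr1 (0.69), Bsn (0.97), Rab3a (1.08) and Syp (0.81) were not called. Wild type cells with RA were taken at day 8 and those with FGF8 at day 10, so medium and day cannot be told apart. In Sv2b the gap stands between wild type groups: -3.07 ± 0.22 with FGF8 and 0.93 ± 0.78 with RA (SD, n = 3 each). The neuron markers Elavl3 (2.57) and Rbfox3 (2.82) were called in the same direction, and their part in these contrasts was not tested.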

How the results depend on the processing

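Of 1115 repeats of the 72 calls of members under alternatives, 905 kept the call, 210 lost it and 0 turned the direction. The calls held least often within a bioC batch (7 of 12 kept in A, 30 of 55 in B), where a group can be left with 1 array that is assumed to vary like the others, and with only the arrays compared (50 of 72), which leaves fewer arrays for the variance. The cause of these losses, and of the others, was not tested. In Olig2 against wild type cells some estimates were smaller within batch B, as for Pclo (-1.35 beside -2.52) and Syt3 (-0.74 beside -1.24). Others were not, as for Rab3a (-1.20 beside -1.18) and Syt7 (-1.44 beside -1.34). With the batch as a block 57 of 72 held. It ended the calls of Rims1 and Syt7 with day, Syt13 in Lmx1a against wild type cells, Syn3 and Syt17 in Lmx1a against Nkx2.2 cells, Pclo, Sv2c, Syn1, Syt17 and Vamp2 in Olig2 cells, Pclo, Synpr, Syt1 and Syt17 in Nkx2.2 with RA against Olig2 cells, and Sv2b in the interaction. With the mean of all probe sets 53 of 72 held, and with probe sets without a suffix 64 of 70, where Syt6 in Olig2 cells fell by construction to 0.07 (adjusted p = 0.595). The mean can alter the values only for the 51 calls whose gene has another probe set. Leaving out suffixes changed the probe set of 2 members, so most calls were repeated there on the same values. Both kinds of repeat are counted in the 1115.

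The counts that moved were these. Lmx1a against wild type cells gave 3 calls with only the arrays compared and 3 within batch A, beside 5. Nkx2.2 against wild type cells with FGF8 gave 5 with the mean of probe sets, 1 with only the arrays compared and 1 within batch B, beside 3. Olig2 against wild type cells gave 2 within batch B, beside 15. Lmx1a against Nkx2.2 cells gave 3 with the batch block and 1 with only the arrays compared, beside 5, and no batch holds both groups. Nkx2.2 cells with FGF8 against RA gave 2 without 3 arrays and 0 with only the arrays compared (11 at an unadjusted p under 0.05 in limma), beside 1. Nkx2.2 with RA against Olig2 cells gave 7 within batch B, beside 15. The interaction gave 4 with the mean of probe sets and 11 without 3 arrays, beside 7.

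Leaving out 1 array gave 4 to 8 calls with day (4 without day 14 replicate 3), 4 to 7 for Lmx1a and 2 to 4 for Nkx2.2 against wild type cells with FGF8, and 10 to 14 for Olig2 cells. For Lmx1a against Nkx2.2 cells it gave 3 to 5 (3 without Lmx1a replicate 3 or Nkx2.2 replicate 1). For Nkx2.2 cells with FGF8 against RA it gave 0 to 2: 2 without FGF8 replicate 2, and 0 without replicate 1 or 3 of either medium, with 6 to 10 at an unadjusted p under 0.05 in limma. For Nkx2.2 with RA it gave 10 to 16 against Olig2 and 10 to 15 against wild type cells. The interaction had 4 to 10, with 4 without replicate 1 of Nkx2.2 or wild type cells with FGF8 or of wild type cells with RA.

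With the replicate number as a block, which does not pair the samples, 69 of 72 calls held, and the counts were 6 with day, 5, 3 and 14 for Lmx1a, Nkx2.2 with FGF8 and Olig2 against wild type cells, 5 for Lmx1a against Nkx2.2, 1 between media, 15 and 14 for Nkx2.2 with RA against Olig2 and wild type cells, and 6 for the interaction.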
